A study of Macaca mulatta with 6 samples.

Results

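Genes of the extracellular matrix were examined in retinas of rhesus macaques after gamma knife surgery, a form of stereotactic irradiation, of the optic nerve within the orbit. The set held 47 genes chosen by name: collagens, laminins, the proteins that link them, fibronectin and its relatives, matricellular proteins, proteoglycans and 1 cross-linking enzyme. Of these, 38 had a probe set annotated to them alone on the array, with 80 such probe sets in all, among 14132 genes and 52024 probe sets. The remaining 9 genes (COL4A1, COL4A2, COL5A1, COL8A1, FBLN2, NID2, SPARC, SPARCL1 and NCAN) were not analysed here. Each gene was read from its brightest probe set, the one with the highest mean signal over the arrays, and 27 of the 38 had further probe sets, which are given beside it.

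The 3 monkeys were males aged 8 to 10 years. In each, the optic nerve of 1 side received 15 Gy at the 50% isodose line, and 24 h later the temporal part of both retinas was taken without the pigment epithelium. The retina of the irradiated nerve is called treated and that of the other eye of the same monkey control, with 3 retinas in each group and 1 array per retina. The dose reached about 3 Gy in the eyeball of the treated side and about 1 Gy in that of the other side, so the control retinas were not free of radiation and came from animals under the same anaesthesia, and no untouched monkey was analysed here.

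The extracellular matrix of the retina lies mainly in basement membranes: the inner limiting membrane, at the endfeet of the Müller glia, and the sheaths of the vessels, both built from laminins and type IV collagen joined by nidogen, perlecan and agrin. The vitreous beside it is held by fibrils of collagens II, V, IX and XI, while the sclera and the optic nerve sheath are rich in collagens I and III and in small leucine-rich proteoglycans, which bind collagen fibrils and set their spacing. Photoreceptors and neurons are surrounded by a looser matrix of proteoglycans and glycoproteins.

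The values were log2 signals of the array, on which a difference of 1 is a doubling. Markers of retinal neurons fitted the labelled tissue: 11 of 18 listed were measured, each with a mean log2 signal over 5, and the rod genes PDE6A and GNAT1 had means of 15.08 and 14.88. Between 22.6% and 29.7% of the probe sets of an array lay under a log2 signal of 5, where the spread between arrays was wide, and treated replicate 2 had the largest share. Control replicate 1 stood apart in OPTC, a proteoglycan of the ciliary epithelium and vitreous, at 9.99 against 2.95 to 6.57 on the other arrays, and in the fibroblast marker SFRP2, at 12.59 against 10.23 to 11.21. The summed linear signal of the fibroblast markers was 21997 there, beside 21485 and 21667 in control replicates 2 and 3. Such a sum weighs the brightest genes most, so it cannot show whether the dimmer markers set the array apart. The median log2 signal of the list was 7.23 there, beside 6.26 and 7.05. Among the members 3 (COL1A1, TNR and LOX) had a mean under 5, as did 19 of their 80 probe sets.

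No change of a matrix gene was detected 24 h after irradiation at the resolution of 3 pairs: 0 of the 38 passed limma's test of treated against control within the pairs at an adjusted p under 0.05, against 0.212% of all 14132 genes. The members nearest to the threshold were lumican (LUM), fibulin 7 (FBLN7) and vitrin (VIT), all lower in the treated retina of every monkey, and fibronectin (FN1). On its brightest probe set FN1 was higher in every monkey, though by only 0.03 in pair 2. On a dimmer probe set FN1 was lower in every monkey. In log2 units 16 members lay above 0 and 22 below, with a median difference of −0.04 beside 0.03 over all genes. Both medians shifted up when arrays were centred on their medians, to 0.05 for the members and 0.13 for all genes, so that the sign of the members' median depended on the scaling; centring moves all genes alike and leaves its distance from all genes at −0.08. That distance was −0.02 without replicate 1, −0.12 without replicate 2, −0.11 without replicate 3 and 0.0041 when the probe sets of a gene were averaged. The median of the members was −0.16 in pair 1, 0.11 in pair 2 and −0.09 in pair 3, beside 0.04, 0.07 and −0.0036 for all genes.

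**Figure D1:**
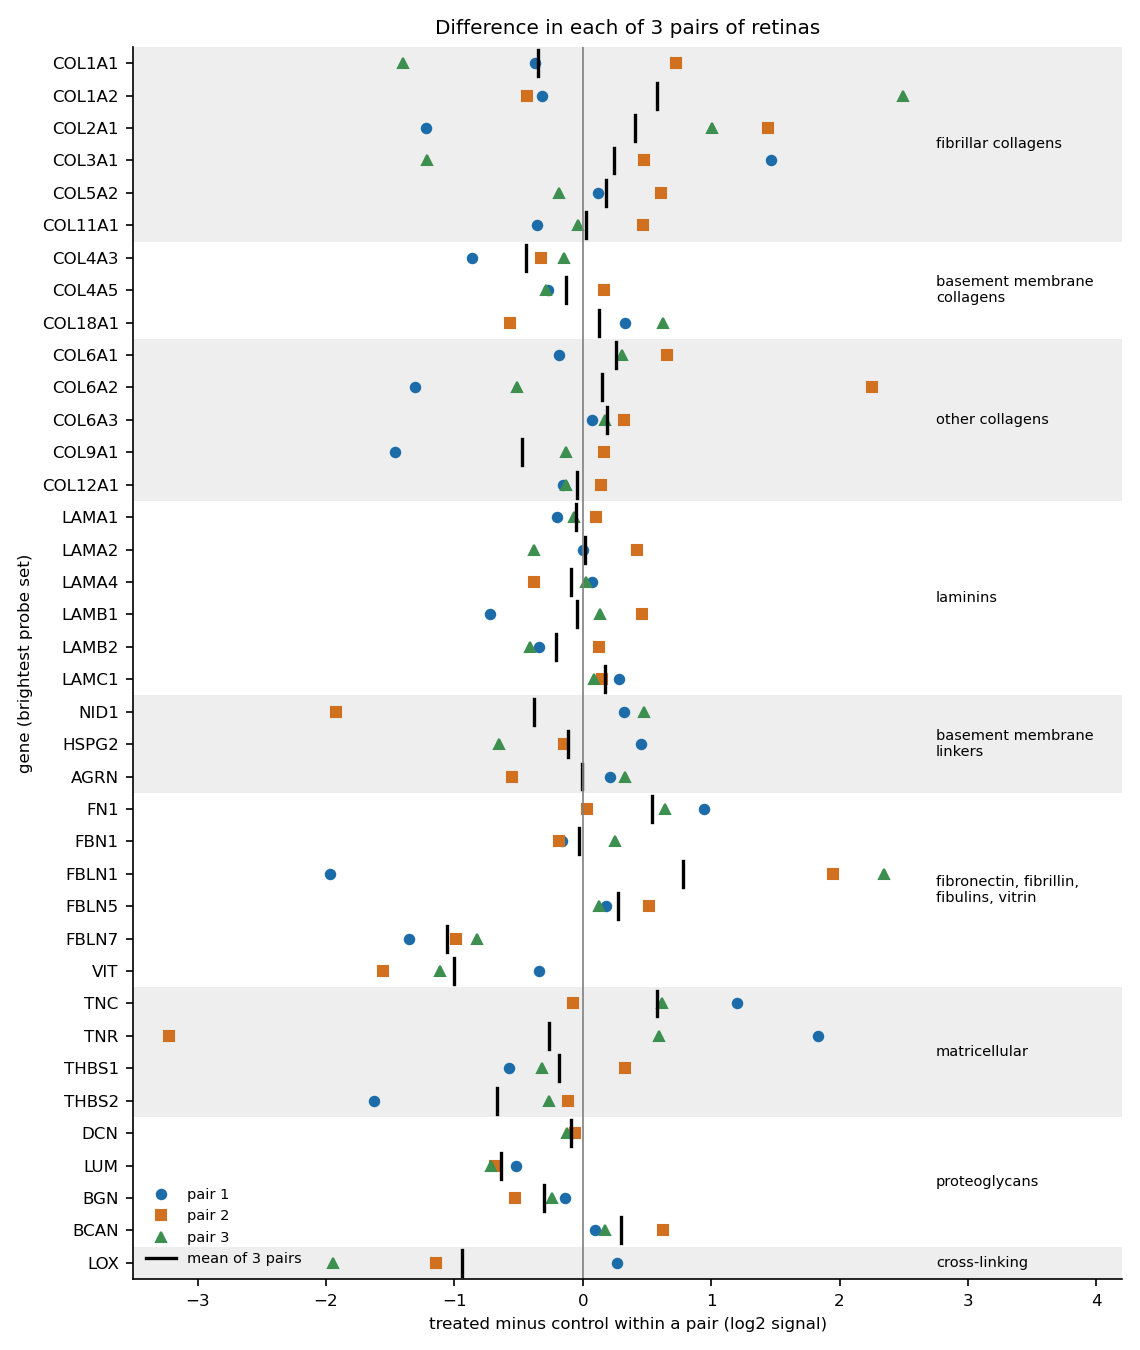
Difference between the treated and the control retina of each monkey for the 38 matrix genes with a probe set, grouped by role. The horizontal axis is treated minus control in log2 signal; circles, squares and triangles are pairs 1, 2 and 3, and the bar is their mean. LUM, FBLN7 and VIT lie left of 0 in all 3 pairs, and for COL2A1 and FBLN1 pair 1 lies on the other side of 0 from pairs 2 and 3.

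At an unadjusted p under 0.05, 1 member was higher (FN1, 2.63% of the members against 5.02% of all genes) and 3 were lower (FBLN7, VIT and LUM, 7.89% against 3.01%). The methods' paired t-test, which takes each gene's spread from its own pairs alone, called 0 members higher (4.21% of all genes) and 3 lower (FBLN7, DCN and LUM, 7.89% against 2.84%). The 3 treated values lay wholly above the 3 control values in 0 members (4.3% of all genes) and wholly below them in 4 (FBLN7, VIT, LUM and BGN, 10.5% against 2.7%). In 5 members (COL6A3, LAMC1, FN1, FBLN5 and BCAN) all 3 pairs were higher, 13.2% against 19.3% of all genes, and in 7 (COL4A3, FBLN7, VIT, THBS2, DCN, LUM and BGN) all 3 were lower, 18.4% against 13.6%. FBLN7 and VIT were known as low genes before the list was examined. Without them, 36 members remained, of which 1 was higher (FN1) and 1 lower (LUM) by the unadjusted p, 2 (5.56%) were wholly lower, and 5 were higher and another 5 lower in 3 of 3 pairs. The counts moved with the pairs used: by the unadjusted p, 3 members were higher and 6 lower without replicate 2, 2 higher and 3 lower without replicate 1, and 2 higher and 3 lower without replicate 3. The shares of all genes under these fits are not given here, so these counts cannot be set against the whole array.

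The members had larger differences and SEs than the typical gene, but were also dimmer. Their median absolute log2 difference was 0.25 with a median SE of 0.22, beside 0.17 and 0.18 over all genes. Among genes with a mean log2 signal of 5 or more, these were 0.21 and 0.20 beside 0.15 and 0.15. The median signal of an array was then 8.07 to 8.48 for the members and 9.07 to 9.24 for all genes. No comparison was made at like signal. In 32 of the 38 (84.2%, against 87.7% of all genes) the range of the 3 control retinas was wider than the difference between the groups, and in 26 (68.4%, against 67.2%) the 3 pairs did not share a direction. Both shares were close to those of the whole array.

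**Figure D2:**
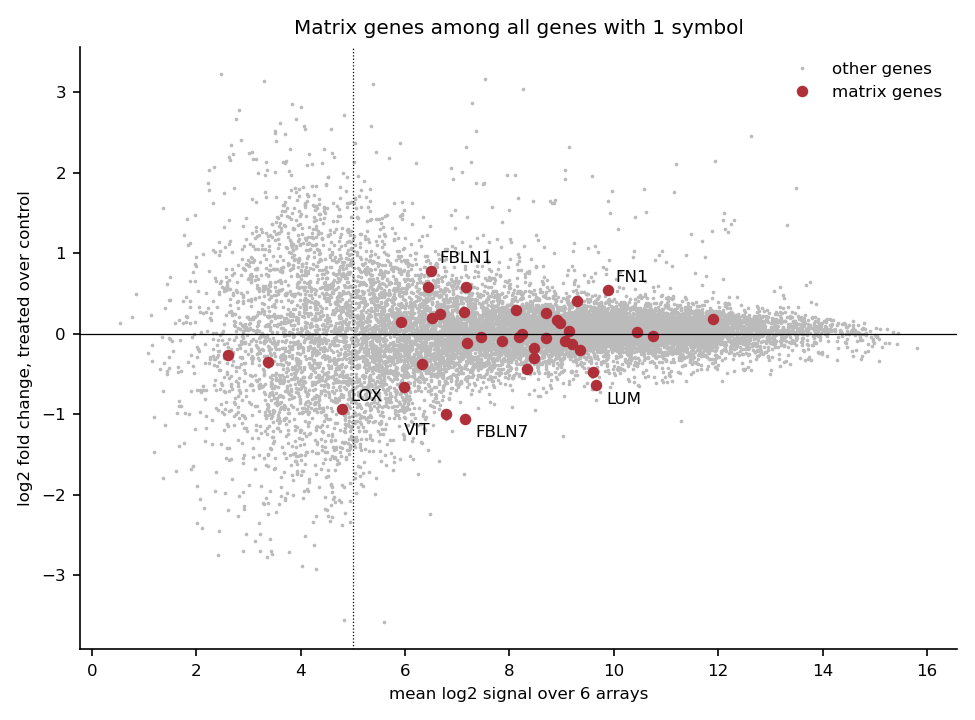
Log2 fold change of treated over control against the mean log2 signal over the 6 arrays, for all genes with a symbol (grey) and the 38 matrix genes (red). The dotted line marks a log2 signal of 5, under which the grey cloud widens; LUM at −0.64 and FN1 at 0.54 lie at the rim of the cloud for their signal, and LOX at −0.94 lies within it.

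Among the small leucine-rich proteoglycans, LUM gave the smallest adjusted p of all members. LUM encodes lumican, a keratan sulfate proteoglycan that binds collagen fibrils in the sclera, cornea and other connective tissues. Its log2 signal was 9.83, 10.16 and 9.93 in control retinas 1, 2 and 3 and 9.31, 9.48 and 9.22 in treated retinas 1, 2 and 3. Every treated value was below every control value, and the means were 9.97 ± 0.17 and 9.34 ± 0.13 (SD, n = 3). The log2 difference was −0.64 (SE 0.11), 1.56-fold lower, with an adjusted p of 0.208 by limma. A further probe set of LUM read 9.69, 9.52 and 9.34 in the control and 9.26, 8.71 and 8.54 in the treated retinas, a difference of −0.68 (SE 0.14, adjusted p = 0.338 by limma). The dimmest one read 5.45, 4.26 and 4.95 against 4.08, 2.26 and 4.05, a difference of −1.42 (SE 0.72). On each of the 3 probe sets the groups did not overlap, and LUM stayed below 0 under all alternatives of processing, from −0.91 to −0.54, with adjusted p between 0.0576 and 0.9999 by limma. As every pair was lower on each probe set, leaving 1 out or reading another probe set could not turn the sign. Without replicate 1, whose control array stood apart in OPTC and SFRP2, the difference was −0.70.

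Of the other proteoglycans BGN and DCN were, like LUM, lower in 3 of 3 pairs, and BCAN was higher in 3 of 3; none of them was tested against LUM. Biglycan (BGN), a collagen-binding proteoglycan of the same class, read 8.54, 8.70 and 8.64 in the control and 8.40, 8.17 and 8.41 in the treated retinas. The groups did not overlap, but the log2 difference was −0.30 (SE 0.16, adjusted p = 0.752 by limma) and another probe set of BGN gave 0.90 (SE 0.61). Decorin (DCN), which binds collagen I and TGF-beta, was lower in all 3 pairs by little, with a mean difference of −0.09 (SE 0.13, adjusted p = 0.897 by limma). Its control values were 8.89, 9.02 and 9.44 and its treated values 8.81, 8.95 and 9.32, so the differences among monkeys were wider than those between the eyes, and its 4 other probe sets lay between 0.23 and 1.57. Brevican (BCAN), a hyaluronan-binding proteoglycan of neural tissue made largely by glia, was higher in all 3 pairs on its brightest probe set. It read 8.17, 7.75 and 7.99 in the control and 8.27, 8.37 and 8.16 in the treated retinas, a difference of 0.30 (SE 0.19, adjusted p = 0.769 by limma). A dimmer probe set of BCAN gave 0.46 (SE 0.69), with pairs at 1.97, −0.29 and −0.28. BGN, DCN and BCAN were named after their values were seen.

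**Figure D3:**
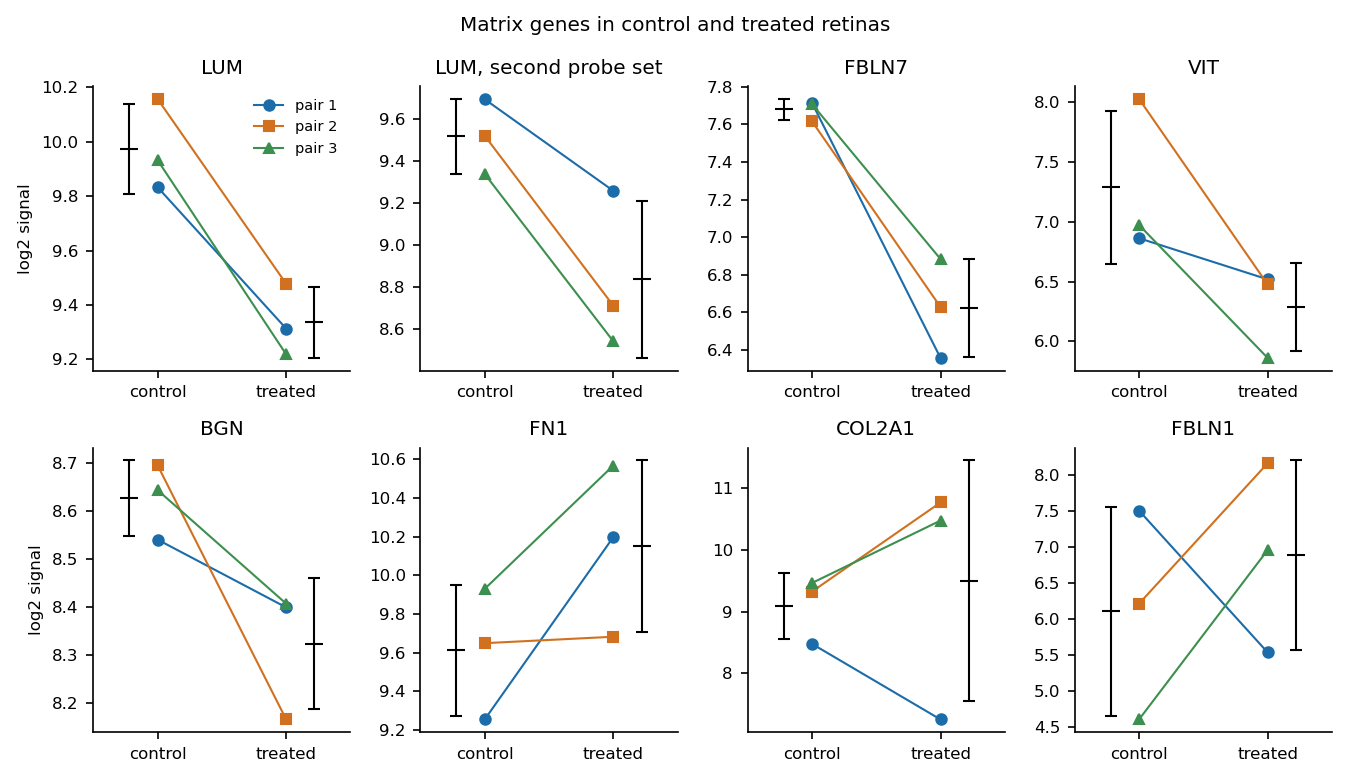
Log2 signal of 7 matrix genes in the control and treated retina of each monkey, with a further probe set of LUM; lines join the retinas of 1 monkey, horizontal bars with whiskers are means ± SD (n = 3), and the vertical axes differ between panels. In the panels of LUM, FBLN7, VIT and BGN no treated point reaches the lowest control point, in that of FN1 pair 2 is nearly level, and in those of COL2A1 and FBLN1 pair 1 runs opposite to pairs 2 and 3.

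Tissue outside the neural retina can bring lumican, and its markers varied between arrays. Of 12 listed fibroblast markers 10 were measured, all with a mean log2 signal over 5, and their summed linear signal was 21485 to 21997 in the control and 17386 to 25812 in the treated retinas. Of them 6 lay above 0 and 4 below, between −0.72 and 2.51, with a median log2 difference of 0.07. The groups did not overlap in 1 marker on the higher and 1 on the lower side, beside 4.3% and 2.7% of all genes. The smallest adjusted p of the list was 0.234 by limma. The 5 measured of 10 markers of surface epithelium summed to 815 to 1345 in the control and 372 to 750 in the treated retinas, without overlap. Such a sum weighs the brightest genes most. Taken singly, 1 of the 5 was wholly lower in the treated retinas, beside 2.7% of all genes. Of the 5 markers KRT16, a keratin, fell by 1.27 (adjusted p = 0.0304 by limma). The other 4 did not pass and lay on both sides of 0: over the 5 markers 2 were above 0, the median log2 difference was −0.14, and 3, 0 and 3 were above 0 in pairs 1, 2 and 3. DSG3 and KRT4, of the same list, had means under 5. The part of these tissues in the values of LUM was not tested. In whole retina, fewer cells of a type and less RNA per cell cannot be told apart.

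Fibronectin and its relatives, secreted glycoproteins of elastic fibres, basement membranes and wound matrix, lay on both sides of 0. Of 6 members measured of 7 listed, 3 were above and 3 below, with a median log2 difference of 0.12, and no gene of the group passed the adjusted threshold. FBLN7, a fibulin that binds cells and matrix, read 7.71, 7.62 and 7.71 in the control and 6.36, 6.63 and 6.88 in the treated retinas. The control retinas lay close together, the treated ones all lay lower, and the means were 7.68 ± 0.05 and 6.62 ± 0.26 (SD, n = 3). The log2 difference was −1.06 (SE 0.27), 2.08-fold lower, with an adjusted p of 0.535 by limma. VIT, which encodes vitrin, a protein first found in the vitreous, read 6.86, 8.03 and 6.97 in the control and 6.52, 6.48 and 5.86 in the treated retinas. The highest treated value lay 0.34 below the lowest control value, that of the same monkey, and the other 2 pairs differed by −1.55 and −1.11. The mean difference of VIT was −1.003 (SE 0.35, adjusted p = 0.716 by limma). FBLN7 and VIT each had 1 probe set, so no further reading of the gene was at hand. Both stayed below 0 under all alternatives of processing, from −1.17 to −0.91 for FBLN7 and from −1.33 to −0.73 for VIT. As every pair was lower, leaving 1 out could not turn the sign. With 1 probe set, the alternatives that read other probe sets left the differences as they were. Without replicate 1 FBLN7 and VIT stood at −0.91 and −1.33.

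FN1, a glycoprotein that joins cells to collagen and is laid down early in repair, was the member with the lowest unadjusted p among those that were higher. It read 9.25, 9.65 and 9.93 in the control and 10.20, 9.68 and 10.57 in the treated retinas. The pairs differed by 0.94, 0.03 and 0.64, and the groups overlapped because pair 2 was nearly level. The log2 difference was 0.54 (SE 0.17), 1.45-fold higher, with an adjusted p of 0.676 by limma. Without replicate 2 it was 0.79 with an adjusted p of 0.00489 by limma on the remaining 2 pairs, the 1 setting in which a member passed. A dimmer probe set of FN1 had the other sign, at 5.73, 5.14 and 5.30 against 5.67, 4.25 and 4.85, a difference of −0.47 (SE 0.57). Markers of astrocytes and of blood and microglia were mostly above 0 as well. Of 5 astrocyte markers 4 were measured, all above 0, with a summed linear signal of 22798 to 26021 in the control and 24703 to 43674 in the treated retinas, and GFAP, the intermediate filament of reactive glia, rose by 2.14 (adjusted p = 0.03035 by limma). PAX2, of the same list, had a mean under 5. The median of the astrocyte list was 1.17 in pair 1, 1.06 in pair 2 and 0.33 in pair 3. Of 10 markers of blood and microglia 8 were measured, 7 of them above 0, the sums were 1788 to 2236 and 1887 to 2753, and the medians by pair were 0.49, 0.62 and 0.78. MS4A1, of that list, had a mean under 5. The part of these cells in the values of FN1 was not tested.

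The rest of the group showed no shared direction. Fibrillin 1 (FBN1), the backbone of microfibrils, read 11.27, 10.75 and 10.27 in the control and 11.11, 10.57 and 10.52 in the treated retinas, a difference of −0.03 (SE 0.12, adjusted p = 0.968 by limma). Its other probe sets gave −0.20, −0.26 and 0.15. Fibulin 5 (FBLN5), needed to assemble elastic fibres, was higher in 3 of 3 pairs by 0.27 on average (SE 0.26). Fibulin 1 (FBLN1), a fibulin of basement membranes and elastic fibres, read 7.50, 6.21 and 4.61 in the control and 5.53, 8.16 and 6.96 in the treated retinas. Its pairs differed by −1.97, 1.95 and 2.35, so that the mean of 0.78 (SE 0.78, adjusted p = 0.843 by limma) described no single monkey. A further probe set of FBLN1 showed the same split, at −1.40, 1.64 and 1.85, as did another at −3.54, 2.44 and 4.23. FBLN5 and FBLN1 were named after their values were seen.

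The fibrillar collagens, which build the fibrils of sclera and vitreous, were mostly above 0 in the mean and split between monkeys. Of 6 measured of 7 listed, 5 lay above 0 with a median log2 difference of 0.21, but the median was −0.34 in pair 1, 0.54 in pair 2 and −0.11 in pair 3. COL5A2, a chain of collagen V, which starts and thins fibrils, had the highest signal of the role, at 11.71, 11.71 and 12.03 in the control and 11.83, 12.31 and 11.84 in the treated retinas. Its difference was 0.18 (SE 0.15, adjusted p = 0.806 by limma), and its 3 other probe sets read −0.12, −0.13 and 0.05. COL2A1, the main fibril collagen of vitreous and cartilage, named after its values were seen, read 8.48, 9.32 and 9.46 in the control and 7.26, 10.77 and 10.47 in the treated retinas. Treated retina 1 was the lowest of the 6 and treated retinas 2 and 3 the highest. Its pairs differed by −1.22, 1.44 and 1.01, with a mean of 0.41 (SE 0.44, adjusted p = 0.854 by limma), and a further probe set of COL2A1 gave −1.01, 0.72 and 0.88. COL11A1, which lies in the same vitreous fibrils, gave −0.36, 0.47 and −0.03, and a further probe set of COL11A1 gave −0.14, 0.72 and 0.46. The collagens of scar and sclera, COL1A2 and COL3A1, had means of 0.58 (SE 0.60) and 0.24 (SE 0.51), and COL1A2 was above 0 in pair 3 alone. COL1A1 was under a log2 signal of 5 and gave −0.35 (SE 0.85).

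A split of this kind, lower in pair 1 and higher in pairs 2 and 3, was found in 4 members (COL2A1, COL6A1, LAMB1 and FBLN1), 10.5% of them, beside 9.19% of all genes. Over all 14 measured collagens of 18 listed, 9 lay above 0, the median difference was 0.14, and the median by pair was −0.30, 0.40 and −0.13. Markers of the tissues beside the retina moved between the same arrays. The 7 measured of 10 markers of pigment epithelium and melanocytes, all with means over 5, summed to 3397 to 4525 in the control and 2221 to 4055 in the treated retinas. None of the 7 was above 0 in pair 1, and their median by pair was −0.74, 0.09 and −0.30. The 5 measured of 6 markers of ciliary epithelium and vitreous, of which VIT and COL9A1 are themselves members, summed to 5469 to 6850 and 5154 to 6075, with medians by pair of −0.34, 0.17 and 0.12. The part of these tissues in the split between monkeys was not tested.

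The collagens of basement membranes were represented by 3 of 5 listed, since COL4A1 and COL4A2 were not analysed here, and their median log2 difference was −0.13. COL4A5, a chain of collagen IV, had the highest signal, at 9.10, 9.31 and 9.38 in the control and 8.83, 9.48 and 9.09 in the treated retinas, a difference of −0.13 (SE 0.14, adjusted p = 0.857 by limma). COL4A3, a chain of the same network in mature basement membranes, was named after its values were seen and was lower in 3 of 3 pairs. It read 9.80, 7.64 and 8.24 against 8.94, 7.32 and 8.10, and the spread among monkeys was wider than the difference of −0.44 (SE 0.19, adjusted p = 0.744 by limma). A further probe set of COL4A3 gave −0.48. COL18A1, the source of the fragment endostatin, which holds back vessel growth, gave 0.13 (SE 0.23), with pairs at 0.33, −0.57 and 0.62. A further probe set of COL18A1 gave −0.78 (SE 0.54).

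The laminins, the trimeric proteins that nucleate a basement membrane, gave the smallest median absolute difference of the 9 roles. All 6 listed were measured. On the brightest probe sets their differences lay between −0.21 (LAMB2, SE 0.15) and 0.17 (LAMC1, SE 0.13), with 2 above 0, a median of −0.05 and a median absolute difference of 0.07. Further probe sets gave −1.37 (SE 0.82) for LAMA1, 0.29 (SE 0.18) and −2.58 (SE 1.01) for LAMA2, −0.79 (SE 0.89) for LAMA4 and −0.07 (SE 0.24) for LAMB1. LAMA2, the alpha chain of laminin in muscle and nerve basement membranes, had the highest signal, at 10.52, 9.92 and 10.85 in the control and 10.52, 10.34 and 10.47 in the treated retinas. Its difference was 0.01 (SE 0.15, adjusted p = 0.989 by limma). LAMC1, the gamma chain shared by most laminins, was higher in all 3 pairs, at 0.28, 0.15 and 0.09. LAMA1, LAMA4 and LAMB1 gave −0.05 (SE 0.15), −0.09 (SE 0.20) and −0.04 (SE 0.29). With SEs of 0.13 to 0.29, changes of that size in a laminin were not detectable.

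The proteins that tie laminin to collagen IV all had means below 0 and mixed pairs. NID1, a nidogen, gave −0.38 (SE 0.54), with a difference of −1.92 in pair 2 and of 0.32 and 0.48 in the others. HSPG2, which encodes perlecan, gave −0.11 (SE 0.30), and a further probe set of it gave 0.31 (SE 0.52). AGRN, which encodes agrin, a heparan sulfate proteoglycan that binds laminin, had the highest signal of the role, at 8.64, 7.96 and 8.12 in the control and 8.85, 7.41 and 8.45 in the treated retinas, a difference of −0.01 (SE 0.22, adjusted p = 0.997 by limma). The sign of AGRN, as near 0 as this, turned under quantile normalization and under median centring, to 0.06 and 0.09.

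Of the other collagens, 5 of 6 were measured, 3 of them above 0, with a median of 0.15. COL9A1, a chain of the collagen that coats vitreous fibrils and is made by the ciliary epithelium, had the highest signal, at 10.17, 9.15 and 10.18 in the control and 8.71, 9.32 and 10.05 in the treated retinas. Its difference of −0.48 (SE 0.28, adjusted p = 0.754 by limma) came from pair 1, at −1.46, and was 0.02 without replicate 1. The 3 chains of collagen VI, a beaded filament around cells, gave 0.26 (SE 0.19) for COL6A1, 0.15 (SE 0.70) for COL6A2 and 0.19 (SE 0.34) for COL6A3, which was higher in 3 of 3 pairs. The other probe sets of COL6A1, both dim, gave −0.29 and −0.34. COL12A1, which binds the surface of fibrils, gave −0.05 (SE 0.17).

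The matricellular proteins, which act on cells more than they build the matrix, held 4 measured genes of 6 listed, 1 of them above 0, with a median of −0.22. Thrombospondin 1 (THBS1), which restrains vessel growth and activates TGF-beta, had the highest signal, at 8.61, 8.22 and 8.85 in the control and 8.03, 8.55 and 8.54 in the treated retinas, a difference of −0.18 (SE 0.20, adjusted p = 0.860 by limma). Its 4 other probe sets spread from −0.56 to 0.61. THBS2, its relative, was lower in all 3 pairs with a mean of −0.67 (SE 0.49), of which pair 1 gave −1.62. Tenascin C (TNC), an anti-adhesive protein of injured tissue, read 6.68, 7.13 and 6.81 in the control and 7.89, 7.05 and 7.43 in the treated retinas, a difference of 0.58 (SE 0.32, adjusted p = 0.752 by limma). As in FN1, pairs 1 and 3 of TNC were higher, at 1.20 and 0.61, and pair 2 was level, at −0.08. TNR, a tenascin of the nervous system, was under a log2 signal of 5 and gave −0.26 (SE 1.14). THBS2 and TNC were named after their values were seen. Lysyl oxidase (LOX), which cross-links collagen and elastin, read 5.38, 5.04 and 5.39 in the control and 5.65, 3.90 and 3.45 in the treated retinas. The groups overlapped, and the difference was −0.94 (SE 0.70, adjusted p = 0.791 by limma) at a mean signal under 5.

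Probe sets of 1 gene often disagreed. Of the 27 members with several, 13 (48.1%) had probe sets on both sides of 0, beside 3520 of 6375 genes (55.2%) on the whole array, and 14 had either opposite signs or values over 1 log2 unit apart. The widest gaps were those of COL9A1, with −0.48 on the brightest and 2.39 (SE 0.88, adjusted p = 0.724 by limma) on a dim probe set, and of LAMA2, with 0.01, 0.29 and, on a dim one, −2.58. DCN, COL1A1, LAMA1, BGN, AGRN and FN1 followed, with brightest against farthest values of −0.09 and 1.57, −0.35 and 1.03, −0.05 and −1.37, −0.30 and 0.90, −0.01 and 1.05, and 0.54 and −0.47. Of these 8 farthest readings 5 were on probe sets with a mean under 5, and their SEs lay between 0.57 and 1.02.

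**Figure D4:**
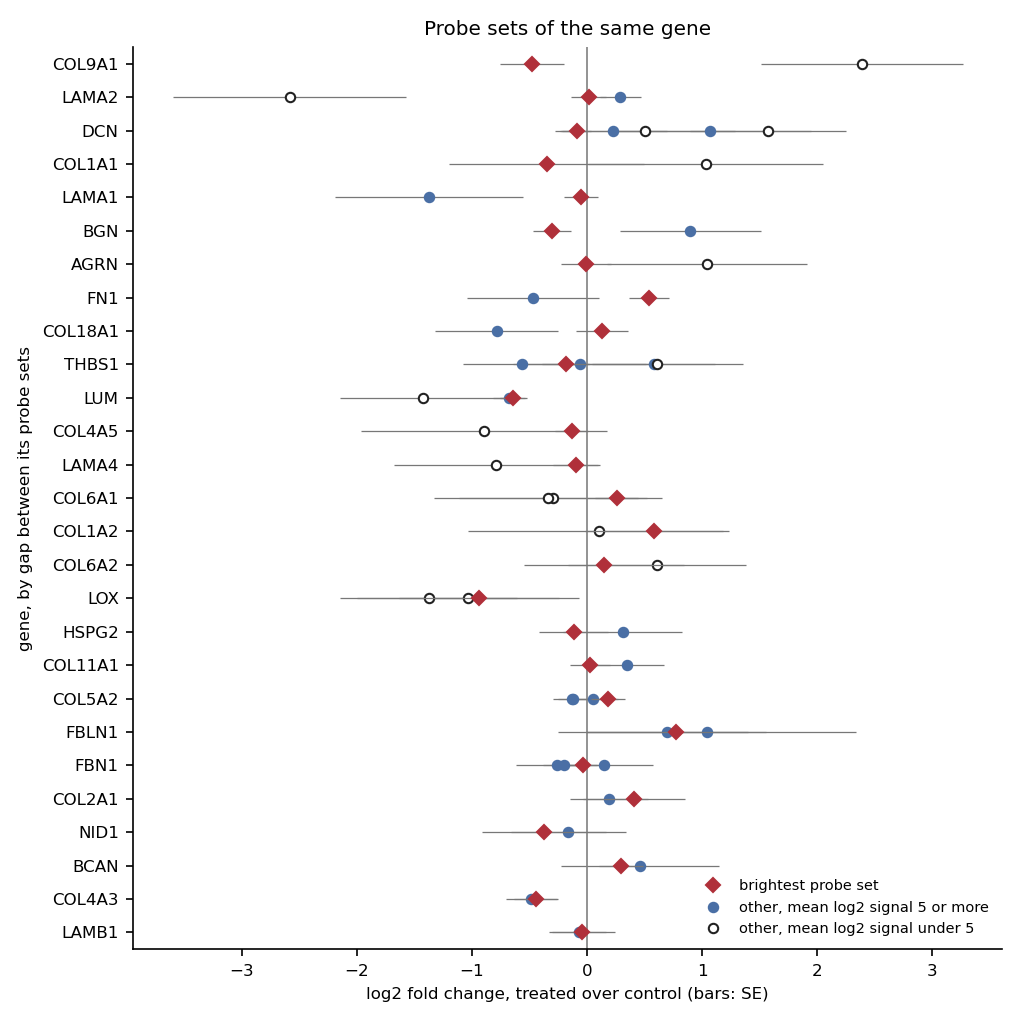
Log2 fold change of treated over control on each probe set of the 27 matrix genes with several, ordered by the gap between them; diamonds are the brightest probe set, filled circles others with a mean log2 signal of 5 or more, open circles those under 5, and bars the SE. The 3 probe sets of LUM all lie left of 0 and the 3 of FBLN1 all right of it, while COL9A1 spans from −0.48 to 2.39.

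In 4 lists of genes that act on the matrix or belong to it, none passed limma's test at an adjusted p under 0.05. Their counts are to be read against all genes, of which 55.5% lay above 0 and, by the unadjusted p, 5.02% passed upward and 3.01% downward; no list was tested against all genes or another list. Among matrix receptors 20 of 23 were measured, 5 of them (25.0%) above 0 and 15 below, with a median of −0.09, and by the unadjusted p 0 passed upward and 3 downward. These were the syndecan SDC3, at −0.47 (SE 0.11, adjusted p = 0.476), the integrin chain ITGB8, at −0.65 (SE 0.17, adjusted p = 0.540), and ITGA2, a chain of a collagen receptor, at −0.70 (SE 0.27, adjusted p = 0.730). ITGB8, whose integrin activates latent TGF-beta, read 10.66 or more in the control retinas (mean 10.81 ± 0.17) and 9.83, 10.34 and 10.32 in the treated ones, without overlap. Genes of collagen synthesis and cross-linking, 22 of 23 measured, had 14 (63.6%) above 0, a median of 0.12, and 2 passing upward and 0 downward by the unadjusted p. The lysyl hydroxylase PLOD2 stood at 0.29 (SE 0.11, adjusted p = 0.730), the prolyl isomerase PPIB at 0.27 (SE 0.10, adjusted p = 0.730) and PCOLCE, which helps to trim procollagen, at 0.66 (SE 0.29, adjusted p = 0.751), and all 3 were higher in each pair.

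Signals of the TGF-beta and CCN families, which drive matrix production in many tissues, had 17 of 21 genes measured, 13 of them (76.5%) above 0, with a median of 0.20, pair medians of 0.17, 0.25 and 0.16, and by the unadjusted p 2 passing upward and 1 downward. CCN1, a matricellular protein induced early by injury and growth factors, read 7.57, 6.22 and 6.89 in the control and 8.36, 7.46 and 7.59 in the treated retinas. Every pair was higher, at 0.79, 1.24 and 0.70, and the mean was 0.91 (SE 0.25, adjusted p = 0.599 by limma). TGFBI, a TGF-beta target that binds collagen, stood at 0.45 (SE 0.15, adjusted p = 0.683), and TGFBR1, a TGF-beta receptor, at −0.42 (SE 0.12, adjusted p = 0.630), with treated values of 11.72, 11.77 and 11.72 all below the control values of 11.87, 12.49 and 12.11.

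Of 62 further matrix genes 48 were measured, 24 on each side of 0, with a median of −0.01, and by the unadjusted p 2 passed upward and 3 downward. Matrilin 2 (MATN2), an adaptor of filaments in the matrix, read 7.58, 7.55 and 8.09 in the control and 8.50, 8.71 and 8.70 in the treated retinas. The groups did not overlap and the difference was 0.90 (SE 0.19), 1.86-fold higher, with an adjusted p of 0.350 by limma. Elastin (ELN), the core of elastic fibres in vessel walls and Bruch's membrane, read 7.73 at the highest and 7.54 at the lowest in the control retinas and 6.61, 3.98 and 5.51 in the treated ones. The groups did not overlap and the difference was the widest of the list on the lower side, at −2.24 (SE 0.54, adjusted p = 0.496 by limma), with pairs at −0.95, −3.75 and −2.03. COL16A1, a collagen that links fibrils, stood at −0.39 (SE 0.13, adjusted p = 0.688), within a range among control retinas of 9.54 to 12.70.

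**Figure D5:**
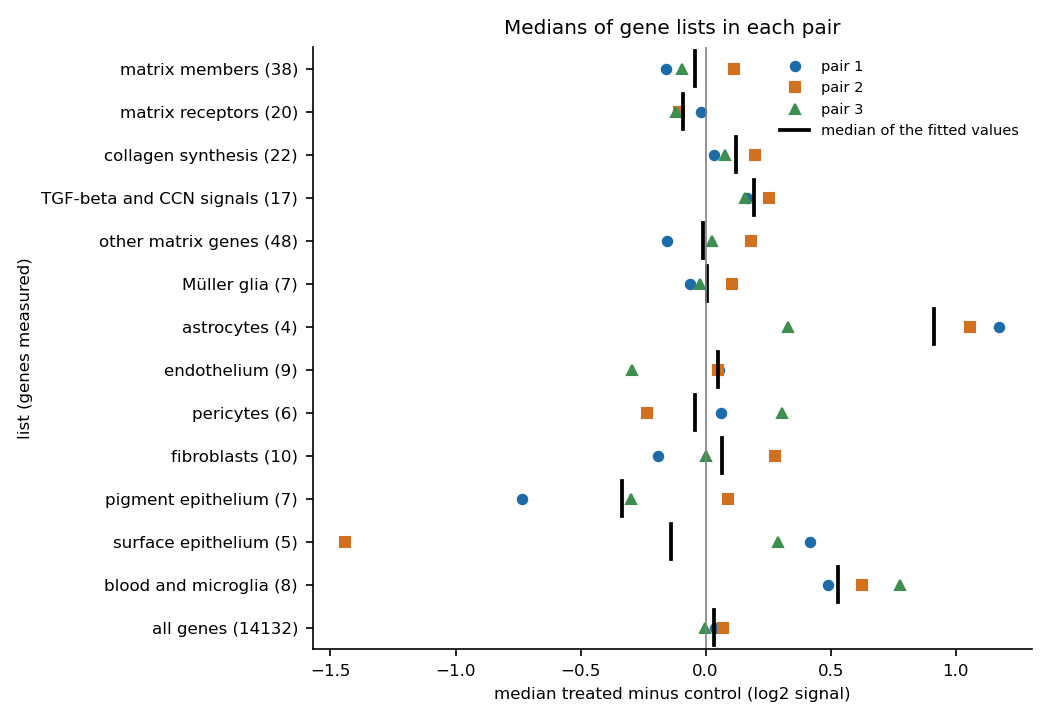
Median treated minus control difference in log2 signal of each gene list, by pair (circle, square and triangle for pairs 1, 2 and 3) and over the fitted differences (bar), with the number of genes measured in brackets. The matrix genes lie at −0.16, 0.11 and −0.09, near all genes, the TGF-beta and CCN list lies right of 0 in all 3 pairs, and the astrocyte and the blood and microglia lists lie farther right.

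Müller glia markers went both ways. Of 8 listed 7 were measured, between −0.54 and 0.58, and 0 passed the adjusted threshold. By the unadjusted p 2 of the 7 passed upward and 3 downward, beside 5.02% and 3.01% of all genes. The list was not tested against all genes. The glutamate transporter SLC1A3 stood at 0.58 (SE 0.098, adjusted p = 0.164 by limma) with no overlap between the groups, the retinoid-binding protein RLBP1 at −0.45 (SE 0.086, adjusted p = 0.270) and the potassium channel KCNJ10 at −0.54 (SE 0.11, adjusted p = 0.339), each in 1 direction in all 3 pairs. The list had 4 above 0, a median of 0.01 and summed signals of 87383 to 113391 in the control and 82406 to 110532 in the treated retinas. Of the endothelium list 9 of 10 were measured, 6 above 0, with a median of 0.05, and of the pericyte and smooth muscle list 6 of 10, 3 above 0, with a median of −0.04. The retinal neuron list had a median of −0.04 with 4 of 11 above 0, the lens list one of 0.02 with 3 of 6 above 0, and the oligodendrocyte list one of 0.16 with 2 of 3 above 0.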

How the data were processed

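RNA of 6 retinas was hybridised to Affymetrix Rhesus Macaque Genome arrays. The authors processed the scans with the MAS 5.0 algorithm and deposited log2 signals, each array scaled to a common trimmed mean (505.3 to 505.8 on the linear scale here), and these values were used as deposited. Array signals carry no counts, so precision rests on the 3 pairs. Of 52024 probe sets, 24956 had 1 gene symbol in GEO's platform annotation, 361 several and 26707 none. Of those with 1 symbol 98.6% were found in the RefSeq gene table, and a gene was read from its brightest probe set.

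Treated and control retinas were compared by limma (version 3.58.1, R 4.3.3) in a model that blocked on the replicate number and let the variance prior follow the signal, and p-values were adjusted by Benjamini and Hochberg over every probe set, of which 58 passed. The labels' replicate number was taken as the monkey. Deviations of same-numbered arrays correlated at 0.357, 0.137 and 0.161, those of different numbers at −0.243 to 0.104. The smallest two-sided exact sign-flip p of 3 pairs is 0.25, so no single-gene permutation test could pass. The script was tested on simulated data. Summaries and figures used Python 3.11.15 and matplotlib 3.10.9.

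The members and lists were chosen with earlier results of these data known. Values in every array were given for members at an unadjusted p under 0.05, for FBLN7 and VIT, and for the member with the highest mean signal in each role; in the other lists up to 3 genes with the smallest p were named, and up to 8 members for disagreeing probe sets. There were 12 alternatives: no block, quantile normalization, median centring, no variance trend, a filter and a floor at a log2 signal of 5, the methods' t-test, each pair left out, the mean of all probe sets and the second brightest probe set.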

Additional observations from a re-analysis of the deposited data

How the results depend on the processing

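Across the alternatives, 0 members passed an adjusted p under 0.05, with 0 to 1 when a replicate was left out (FN1 without replicate 2). The count at an unadjusted p under 0.05 was 1 higher in the main analysis and 0 without the replicate block, 0 without the variance trend and 0 by the methods' t-test, and 2 to 3 when a replicate was left out. The lower count was 3, with 5 for the mean of all probe sets and 3 to 6 when a replicate was left out. Without the replicate block it was 2 (FBLN7 and LUM). The shares of all genes that passed under these alternatives are not given here. LUM, FBLN7, VIT and COL4A5 kept their sign throughout, and LOX kept it in 11 alternatives, since the filter left it out. With values under 5 set to 5, LOX stood at −0.057. The block, the variance trend and the t-test leave a difference as it is. LUM, FBLN7 and VIT were lower in every pair, so leaving 1 out could not turn them. The sign turned in 7 named members. Leaving out 1 replicate each gave −0.033 to 0.36 for COL5A2 (below 0 without replicate 2), −0.80 to 0.018 for COL9A1 (above 0 without replicate 1), −0.19 to 0.21 for LAMA2 (below 0 without replicate 2), −0.17 to 0.27 for AGRN (above 0 without replicate 2), −0.17 to 0.045 for FBN1 (above 0 without replicate 1, at 0.033, and replicate 2) and −0.44 to 0.0091 for THBS1 (above 0 without replicate 1). The mean of all probe sets gave −0.0041 for COL5A2, 0.96 for COL9A1, −0.76 for LAMA2, 0.52 for AGRN and 0.075 for THBS1. The second brightest probe set gave −0.12 for COL5A2, 2.39 for COL9A1, 1.05 for AGRN, −0.47 for FN1 and 0.58 for THBS1. Quantile normalization gave −0.0026 for LAMA2 and 0.063 for AGRN, and median centring 0.091 for AGRN and 0.066 for FBN1. The cause of these turns was not tested. The members' median stayed between −0.10 and 0.05. With 3 pairs and a median SE of 0.22, differences of that size were not detectable, and whether same-numbered arrays were 1 monkey rests on the labels and the correlations above.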

Other observations

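Several matrix genes lie next to each other in the macaque genome (gene order from RefSeq, T2T-MMU8v2.0), and their log2 differences are set side by side here. EPYC, KERA, LUM and DCN, all genes of small leucine-rich proteoglycans, follow each other without another gene between them. LUM stood at −0.64, DCN at −0.09 and EPYC, a gene of epiphycan, at 2.66 (SE 0.89, adjusted p = 0.692 by limma), and KERA was not analysed here. EPYC was dim, at 0.60, 1.16 and 2.51 in the control and 2.18, 4.97 and 5.12 in the treated retinas, was higher in each pair, and was named after its values were seen. COL4A3 stood at −0.44 and its neighbour COL4A4 at 0.01, COL4A5 at −0.13 and COL4A6, with 1 gene between them, at −0.11. COL3A1 and COL5A2 stood at 0.24 and 0.18, and COL6A2 and COL6A1 at 0.15 and 0.26. None of these neighbours passed the test.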
